A study of Mus musculus with 48 samples.

Results

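The 37 genes described here encode heat shock proteins, their relatives and 3 regulators: 3 HSP70 genes clustered on chromosome 17 (the heat-inducible Hspa1a and Hspa1b and the testis-enriched Hspa1l), 8 other cytosolic or divergent HSP70 family members, 2 cytosolic HSP90 genes, 4 chaperones of the endoplasmic reticulum, 4 of mitochondria, 7 small heat shock proteins, 6 cytosolic J-domain proteins, and Hsf1, Hsf2 and Bag3. They were matched by gene symbol to a list drawn up with earlier results of these data known. All 37 have a row among the 32544 gene rows of the deposited count table. All 37 also passed the filter on low counts, in the paired comparison of limbs (16882 genes tested), among immobilized limbs (15478 genes) and among control limbs (16493 genes).

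RNA came from the tibial metaphysis, where the shaft widens towards the growth plate. All mice were males, 19 weeks old. A cast had held the left hindlimb for 3 weeks, and the uncast right limb of the same mouse was the control. The 8 inbred strains were the wild-derived CAST/EiJ, PWK/PhJ and WSB/EiJ, the diabetes-prone NOD/ShiLtJ, the obese NZO/HlLtJ, and C57BL/6J, A/J and 129S1/SvImJ, with no engineered allele or other treatment named in the labels. Each strain gave 3 immobilized limbs and 3 control limbs, 48 libraries in all. Every immobilized limb was a left limb, so the cast and the side of the body cannot be told apart. No mouse without a cast is in the comparison, so what both limbs of a casted animal share cannot be seen here.

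Totals ran from 5253408 to 14744056 counts in 46 libraries. A/J control replicates 2 and 5 held 2335 and 50 counts and were left out, so 22 mice gave both limbs (44 libraries) and the A/J comparison rests on 1 mouse. The bone matrix gene Col1a1 was at no less than 1608 CPM (counts scaled to library size by TMM) in each of the 46 libraries. Skeletal muscle RNA was also present. The summed CPM of 20 muscle markers, among them the muscle creatine kinase gene Ckm and the titin gene Ttn, ranged from 36.9 to 29335 (median 1100) in immobilized limbs and from 88.1 to 87842 (median 1755) in control limbs. This sum was lower in the immobilized limb of 15 of 22 mice, and 13 of the 20 markers fell in the test described below. At most 2 of the 20 markers were at 0 in any library. Several small heat shock proteins are abundant in muscle, so muscle levels are given beside the results they moved with.

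Chaperones bind unfolded or partly folded proteins. HSP70 proteins bind short exposed stretches in a cycle driven by ATP. J-domain proteins deliver clients and speed ATP hydrolysis, nucleotide exchange factors such as the HSP110 protein encoded by Hsph1 reset the cycle, and HSP90 finishes the folding of signalling proteins. Small heat shock proteins hold unfolding proteins without ATP. The transcription factor HSF1 binds heat shock elements, which are inverted repeats of GAA, and switches on cytosolic and some mitochondrial chaperone genes. Chaperones of the endoplasmic reticulum answer mainly to a separate pathway, the unfolded protein response. Bone-forming cells secrete large amounts of collagen, which is folded in that compartment.

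Per kilobase of exon, the mean level over 46 libraries was highest for Hsp90ab1, the constitutive cytosolic HSP90 gene, at 309 CPM per kb. Next came Hspa8, the constitutive HSP70 gene, at 191 CPM per kb, then the endoplasmic reticulum genes Hsp90b1 at 171 and Hspa5 at 140 CPM per kb, and Hsp90aa1 at 114 CPM per kb. The heat-inducible genes Hspa1b and Hspa1a were lowest, at 0.883 and 0.503 CPM per kb. Hspa1b held 2 to 57 counts and Hspa1a 0 to 33 counts per library, so their values carry a large counting error.

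How the cast limb differed from the uncast limb was tested over all 8 strains together. On the log2 scale, 6 of the 37 chaperone genes (16.2%) were lower in immobilized limbs at a false discovery rate (FDR) under 0.05, and 0 were higher. Of all genes tested, 7.43% passed this threshold: 2.86% of all genes tested were lower and 4.58% were higher. The 6 were Hsph1, Trap1, Hsf1, Hspa1l, Cryab and Hspb6. At an unadjusted p under 0.05, 11 members were lower and 0 were higher, against 23.2% of all genes in either direction, and DESeq2 called 10 lower and 0 higher, against 10.8% of all genes in either direction. The median log2 change of the 37 members was -0.071, against 0.0095 over all genes, and 27 of the 37 changes were negative. By class, the median was -0.95 for the small heat shock proteins, with 7 of 7 negative, and -0.60 for the chromosome 17 HSP70 genes, with 3 of 3 negative. For the endoplasmic reticulum genes it was 0.062, with 4 of 4 positive. Of these, Hsp90b1 and Hspa5 turned negative without the single A/J mouse. Muscle markers fell alongside, and with the muscle score of each library (the mean log2 CPM of the 20 markers) as a covariate 1 of the 6 calls was left, against 4.92% of all genes called. With that score 4 of the 7 small heat shock proteins, Hspb2, Hspb3, Hspb7 and Hspb8, had positive changes. In bulk tissue, fewer cells of a type and less RNA per cell cannot be told apart.

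**Figure D1:**
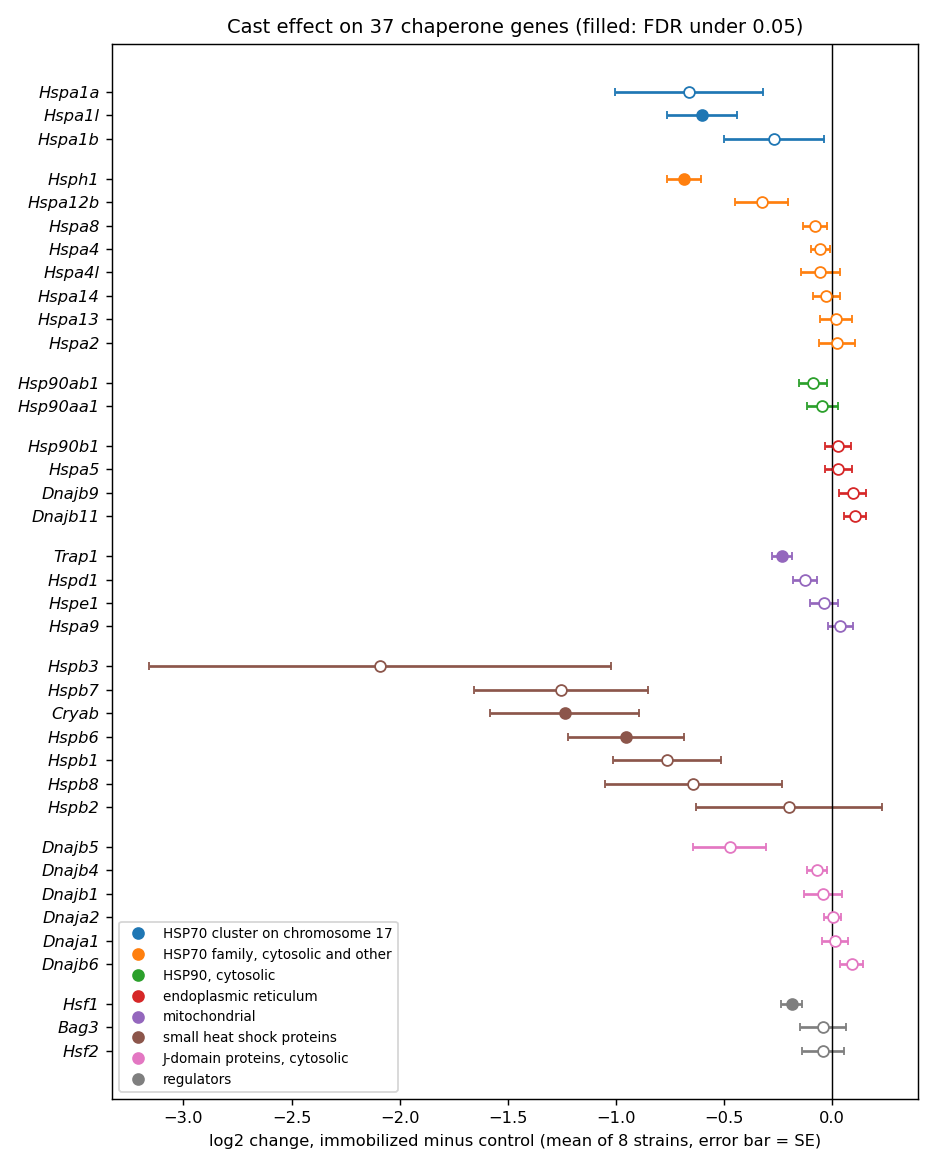
Log2 change of each of the 37 chaperone genes, immobilized minus control, as the mean of 8 strain effects with its SE; genes are grouped by class and filled points passed an FDR of 0.05. The 6 filled points, Hsph1, Trap1, Hsf1, Hspa1l, Cryab and Hspb6, lie left of 0, while the 4 endoplasmic reticulum genes lie between 0.03 and 0.11.

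Hsph1, which encodes the nucleotide exchange factor HSP110 (also called HSP105), had the smallest FDR of the 37. Its level ran from 19.95 to 52.4 CPM (median 27.8) in 24 immobilized limbs and from 27.9 to 98.7 CPM (median 54.3) in 22 control limbs. The ranges overlapped across strains, but 20 of 22 mice had less in the immobilized limb than in their own control limb. Over the 22 mice the means were 31.7 CPM in immobilized limbs and 55.0 CPM in control limbs, a ratio of 0.576. The mean log2 change was -0.68 ± 0.079 (SE), with an FDR of 0.000244. It stayed past the threshold in each of 22 fits that left out 1 mouse. Hsph1 was the only one of the 37 still called with the muscle score, at -0.58 ± 0.11 (FDR 0.00943).

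Trap1 encodes the mitochondrial HSP90. It ranged from 52.2 to 85.7 CPM (median 71.5) in immobilized limbs and from 72.9 to 98.5 CPM (median 83.6) in control limbs. Its shift was small but regular: 21 of 22 mice were lower in the immobilized limb, and the remaining mouse was a 129S1/SvImJ. The log2 change was -0.23 ± 0.046 (SE; FDR 0.009), and it too was called in each of the 22 fits without 1 mouse. With the muscle score as a covariate it was -0.16, with an FDR of 0.138.

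**Figure D2:**
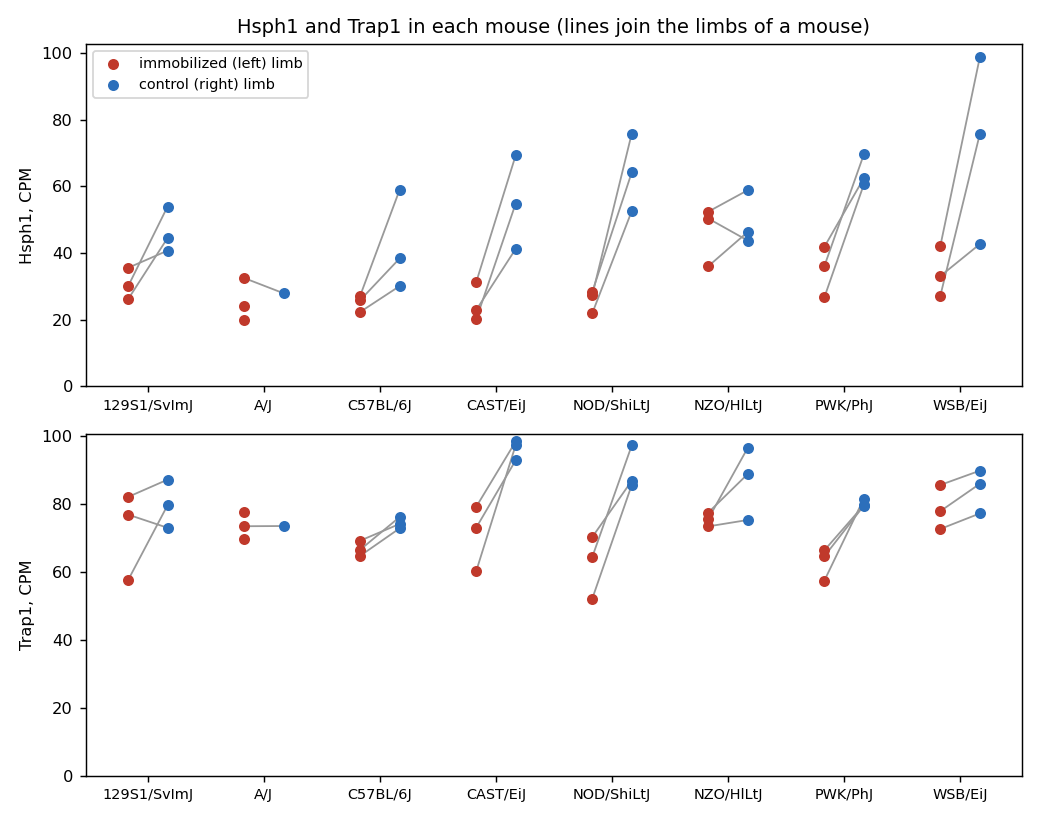
Hsph1 (top) and Trap1 (bottom) in CPM in every usable library, by strain, immobilized limb left and control limb right; each point is a library and lines join the limbs of a mouse. Hsph1 lines slope up to the control limb in 20 of 22 mice and Trap1 lines in 21 of 22; the A/J mice 2 and 5 have no control point.

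Hsf1, the gene of the main heat shock transcription factor, ranged from 20.1 to 33.2 CPM (median 24.3) in immobilized limbs and from 24.8 to 37.2 CPM (median 29.1) in control limbs. Its ranges overlapped, and 17 of 22 mice were lower in the immobilized limb. The log2 change was -0.19 ± 0.048 (SE; FDR 0.0284). Without C57BL/6J replicate 6, NZO/HlLtJ replicate 6 or WSB/EiJ replicate 4 the call was lost (FDR up to 0.0536), and with the muscle score the change was -0.15 (FDR 0.219). Hsf2, a related factor active in development, had a log2 change of -0.041, and Bag3, a co-chaperone that links HSP70 to small heat shock proteins, also -0.041. Neither passed the threshold. Bag3 was the most abundant of these 3 regulators in CPM, with 17.7 to 62.7 CPM (median 27.4) in immobilized limbs and 18.9 to 85.0 CPM (median 25.1) in control limbs. Its groups overlapped almost fully.

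Hspa1l, the testis-enriched gene of the chromosome 17 cluster, was lower in immobilized limbs. It had 1.68 to 8.77 CPM (median 3.26) in immobilized limbs and 2.70 to 15.4 CPM (median 4.16) in control limbs, and 16 of 22 mice were lower. The log2 change was -0.60 ± 0.16 (SE; FDR 0.0331). It lost the call in 5 of the 22 fits without 1 mouse (CAST/EiJ replicate 3, NZO/HlLtJ replicate 6, PWK/PhJ replicates 3 and 4, WSB/EiJ replicate 4; FDR up to 0.0581), and with the muscle score it was -0.28 (FDR 0.443). An antisense gene, Gm10501, covers 71.9% of the annotated exon bases of Hspa1l. Since the strand setting of the counting is not given in the sources used here, reads of the pair cannot be told apart.

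Hspa1a and Hspa1b, the classical heat-inducible HSP70 genes, encode nearly the same protein, and their coding sequences matched at 99.4%, with 8 mismatched bases. Reads can therefore be split between them in a way that the counts do not show. Hspa1a held 0 to 2.83 CPM (median 0.920) in immobilized limbs and 0 to 4.79 CPM (median 1.57) in control limbs. Hspa1b held 0.269 to 4.85 CPM (median 2.08) in immobilized limbs and 0.592 to 8.20 CPM (median 1.87) in control limbs. Their log2 changes, -0.66 ± 0.34 (FDR 0.258) and -0.27 ± 0.23 (SE), did not pass the threshold, and both genes overlapped between limbs.

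Promoters were searched for the arrangement GAANNTTC of the GAA repeats. The other arrangement, TTCNNGAA, was searched only as part of a longer repeat. Windows of 300 bases (250 before and 50 after the annotated start, from RefSeq, GRCm38.p6) were found for 29 of the 37 genes. None was found for Cryab, Hspb2, Hsf1, Hspa8, Hspa9, Hspa13, Hsp90aa1 or Hsp90ab1. The motif GAANNTTC, which reads the same on both strands, occurred in 12 of these 29 genes (41.4%). Counted by window, it occurred in 14 of their 39 windows (35.9%), against 7.86% of 32851 promoter windows of all genes. A repeat of 3 units is this motif followed by NNGAA or preceded by TTCNN (each the reverse complement of the other). It occurred in Dnajb6, Hspd1, Hspe1 and Hsph1, 4 of 29 genes (13.8%) and 6 of 39 windows (15.4%), against 0.603% of all windows. The Dnajb6 windows overlap and hold the same site, as do the Hsph1 windows. Hspd1 and Hspe1 also share a site, so both counts repeat sites. The 6 windows below belong to the 2 genes with the smallest FDR between limbs, to the Hspa1a and Hspa1b pair, to the mitochondrial co-chaperonin gene and to a small heat shock protein gene. Each reads 5′ to 3′ on the gene's own strand, and capitals mark the matched bases.
Hsph1, chr5:149636266-149636565, minus strand: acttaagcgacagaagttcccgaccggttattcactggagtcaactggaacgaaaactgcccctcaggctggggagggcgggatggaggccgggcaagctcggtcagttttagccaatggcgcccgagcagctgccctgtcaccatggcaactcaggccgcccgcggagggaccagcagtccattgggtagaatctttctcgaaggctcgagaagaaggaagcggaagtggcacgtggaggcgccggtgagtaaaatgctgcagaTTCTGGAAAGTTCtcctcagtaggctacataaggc
Trap1, chr16:4077761-4078060, minus strand: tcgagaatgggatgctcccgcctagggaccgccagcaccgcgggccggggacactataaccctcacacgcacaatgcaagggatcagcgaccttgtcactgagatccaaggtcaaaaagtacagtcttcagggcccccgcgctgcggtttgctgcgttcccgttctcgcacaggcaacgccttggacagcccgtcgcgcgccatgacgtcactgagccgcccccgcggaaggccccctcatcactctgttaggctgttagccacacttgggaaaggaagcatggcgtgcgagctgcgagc
Hspa1a, chr17:34972107-34972406, minus strand: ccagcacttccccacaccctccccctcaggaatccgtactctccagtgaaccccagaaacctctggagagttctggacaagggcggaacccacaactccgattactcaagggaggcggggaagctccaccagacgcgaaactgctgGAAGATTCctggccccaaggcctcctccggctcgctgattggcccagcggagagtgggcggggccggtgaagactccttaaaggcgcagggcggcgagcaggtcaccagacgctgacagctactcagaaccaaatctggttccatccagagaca
Hspa1b, chr17:34959189-34959488, minus strand: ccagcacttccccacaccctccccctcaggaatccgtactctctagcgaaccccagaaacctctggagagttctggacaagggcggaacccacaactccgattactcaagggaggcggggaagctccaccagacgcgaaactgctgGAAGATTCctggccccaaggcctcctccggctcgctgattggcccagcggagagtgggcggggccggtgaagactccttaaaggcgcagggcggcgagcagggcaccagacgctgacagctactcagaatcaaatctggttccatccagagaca
Hspe1, chr1:55087898-55088197, plus strand: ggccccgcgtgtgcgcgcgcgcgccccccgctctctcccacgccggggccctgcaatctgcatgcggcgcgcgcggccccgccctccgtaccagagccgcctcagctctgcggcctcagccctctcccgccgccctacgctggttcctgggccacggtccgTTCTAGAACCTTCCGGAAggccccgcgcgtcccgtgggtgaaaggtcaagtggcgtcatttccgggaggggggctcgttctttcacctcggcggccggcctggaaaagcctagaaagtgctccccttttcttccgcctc
Hspb1, chr5:135887669-135887968, plus strand: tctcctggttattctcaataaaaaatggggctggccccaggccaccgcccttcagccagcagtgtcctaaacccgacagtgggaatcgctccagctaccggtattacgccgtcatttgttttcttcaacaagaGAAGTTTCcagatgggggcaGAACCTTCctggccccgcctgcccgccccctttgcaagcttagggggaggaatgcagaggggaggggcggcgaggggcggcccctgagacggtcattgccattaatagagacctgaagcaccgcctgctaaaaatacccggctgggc
In Hsph1 the 3-unit repeat lies downstream of the start, with GAANNTTC beginning 20 bases after it. Trap1 has no match to GAANNTTC in its window. The Hspa1a and Hspa1b windows differ at 4 of 300 positions, and in both the match begins 104 bases before the start. Hspe1 and its neighbour Hspd1 are transcribed away from each other, their windows share 285 positions, and both hold the same repeat. Hspb1 has 2 matches, beginning 117 and 97 bases before its start. Any link between these matches and the change between limbs was not tested.

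The abundant cytosolic chaperones did not pass the threshold. Hspa8 ran from 406 to 1507 CPM (median 650) in immobilized limbs and from 430 to 1914 CPM (median 752) in control limbs, and 18 of 22 mice were lower in the immobilized limb. Its mean log2 change was nevertheless -0.08 ± 0.055 (SE; FDR 0.419), since the contrast weights 8 strains equally and the single A/J mouse went the other way. Without that A/J mouse the change was -0.17 with an FDR of 0.0282. Hspa4, an HSP110-type exchange factor, likewise reached -0.17 (FDR 0.00907) without it. Hsp90ab1 ran from 562 to 1229 CPM (median 883) in immobilized limbs and from 613 to 1329 CPM (median 1013) in control limbs, with a log2 change of -0.09. Its ranges overlapped almost entirely. Hsp90aa1, the stress-responsive cytosolic HSP90 gene, had a change of -0.05, and with all 48 libraries kept both HSP90 changes were positive, at 0.0063 for Hsp90aa1 and 0.014 for Hsp90ab1. Hspa12b, a divergent HSP70 gene, had -0.32 ± 0.12 (FDR 0.114).

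None of the 4 endoplasmic reticulum chaperones passed the threshold. Hsp90b1, which encodes GRP94, ran from 447 to 908 CPM (median 667) in immobilized limbs and from 468 to 1094 CPM (median 705) in control limbs, and 9 of 22 mice were higher in the immobilized limb. Hspa5, which encodes the luminal HSP70 called BiP, had medians of 594 CPM in immobilized limbs and 587 CPM in control limbs. In Hspa5, 11 of 22 mice were higher in the immobilized limb and 11 were lower. The log2 changes of Hsp90b1 and Hspa5 were both 0.03. Both turned negative without the single A/J mouse, at -0.066 for Hsp90b1 and -0.030 for Hspa5. The J-domain partners of BiP had 0.09 (Dnajb9) and 0.11 ± 0.052 (Dnajb11; FDR 0.229). Of 21 further genes of endoplasmic reticulum folding and the unfolded protein response, 1 rose and 0 fell, a share near the 4.58% of all genes that rose. It was P4hb, which encodes protein disulfide isomerase, a subunit of the enzyme that hydroxylates collagen prolines, at 0.32 ± 0.070 (SE; FDR 0.0146). The median over those 21 genes was 0.04. Osteoblast and bone matrix markers moved alongside, with 7 of 10 higher in immobilized limbs; their part in the P4hb result was not tested.

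In mitochondria, the matrix HSP70 gene Hspa9 had the highest CPM. It ran from 188 to 338 CPM (median 239) in immobilized limbs and from 175 to 379 CPM (median 239) in control limbs, with 12 of 22 mice higher in the immobilized limb and a log2 change of 0.04. The groups overlapped almost entirely. Hspd1, the chaperonin HSP60, had -0.13 ± 0.054 (FDR 0.167), and 17 of 22 mice were lower. Without the A/J mouse it was called, at -0.25 (FDR 0.00287). Of 12 further mitochondrial proteostasis genes, 1 fell and 0 rose, where 2.86% of all genes fell: Dnaja3, a mitochondrial J-domain protein, at -0.22 ± 0.057 (SE; FDR 0.0278).

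Other partners of HSP70 and HSP90 were counted from a separate list of 19 co-chaperones. Of these, 3 fell and 0 rose, against 2.86% of all genes lower and 4.58% higher, and the list's median was -0.11. Ppid, the HSP90-binding cyclophilin, fell by 0.35 ± 0.043 on the log2 scale (SE; FDR 0.000341). Chordc1, a zinc-binding HSP90 co-chaperone, fell by 0.25 ± 0.050 (FDR 0.00912), and Unc45b, the muscle myosin chaperone, by 1.24 ± 0.30 (FDR 0.0218). None of the 7 tested subunits of the cytosolic TRiC chaperonin was called in either direction. Of 8 further small heat shock and J-domain proteins tested, 1 fell (against the same 2.86%), the J-domain gene Dnaja4, at -0.46 ± 0.10 (FDR 0.0144). Among the 6 J-domain members, Dnaja1 was the most abundant in CPM, with 89.8 to 180 CPM (median 131) in immobilized limbs and 102 to 167 CPM (median 138) in control limbs. Its log2 change of 0.02 was close to 0. Dnajb5, a J-domain gene also abundant in muscle, had the largest negative change of the 6, at -0.47 ± 0.17 (FDR 0.0941), and none of the 6 was called.

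The small heat shock proteins had the largest changes and the largest spread. Cryab encodes alphaB-crystallin, which protects desmin and other filaments in muscle. It ran from 0.765 to 109 CPM (median 19.8) in immobilized limbs and from 1.88 to 642 CPM (median 29.6) in control limbs, and 15 of 22 mice were lower in the immobilized limb. The groups overlapped over most of this range. Its log2 change was -1.24 ± 0.34 (SE; FDR 0.0394). Hspb6, which encodes HSP20 of striated and smooth muscle, ran from 7.67 to 179.9 CPM (median 17.3) in immobilized limbs and from 7.70 to 487 CPM (median 28.5) in control limbs, with 13 of 22 mice lower. Its log2 change was -0.95 ± 0.27 (SE; FDR 0.0415). Neither call was stable: 11 of 22 fits without 1 mouse lost Cryab (FDR up to 0.0713) and 16 of 22 lost Hspb6 (FDR up to 0.0883), with mice of 7 and 8 strains among those left out.

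Hspb7, the cardiovascular small heat shock protein, reached -1.25 ± 0.40 (FDR 0.0694), with 1.79 to 175 CPM (median 10.2) in immobilized limbs and 1.01 to 469 CPM (median 17.2) in control limbs. Hspb1, which encodes the widely expressed HSP25 of mice, had -0.76 ± 0.25 (FDR 0.0705). Hspb8, a partner of BAG3, had -0.64 ± 0.41 and Hspb2, a muscle-restricted member, -0.20 ± 0.43. Hspb3, also muscle-restricted, had 0 counts in each WSB/EiJ immobilized limb, so its fitted mean change of -2.09 ± 1.07 (FDR 0.258) depends on the prior count and is no bound. None of these 5 passed the threshold.

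Muscle marker RNA moved with the small heat shock proteins. The library with the most muscle RNA, NOD/ShiLtJ control replicate 4 with a marker sum of 87842 CPM, also had the most Cryab, Hspb6, Hspb7 and Hspb2. With the muscle score as a covariate, the changes of Cryab and Hspb6 were -0.16 (FDR 0.803) and -0.15 (FDR 0.824), and neither was called. Those of Hspb2, Hspb3, Hspb7 and Hspb8 turned positive, at 0.94, 0.16, 0.19 and 0.88.

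**Figure D3:**
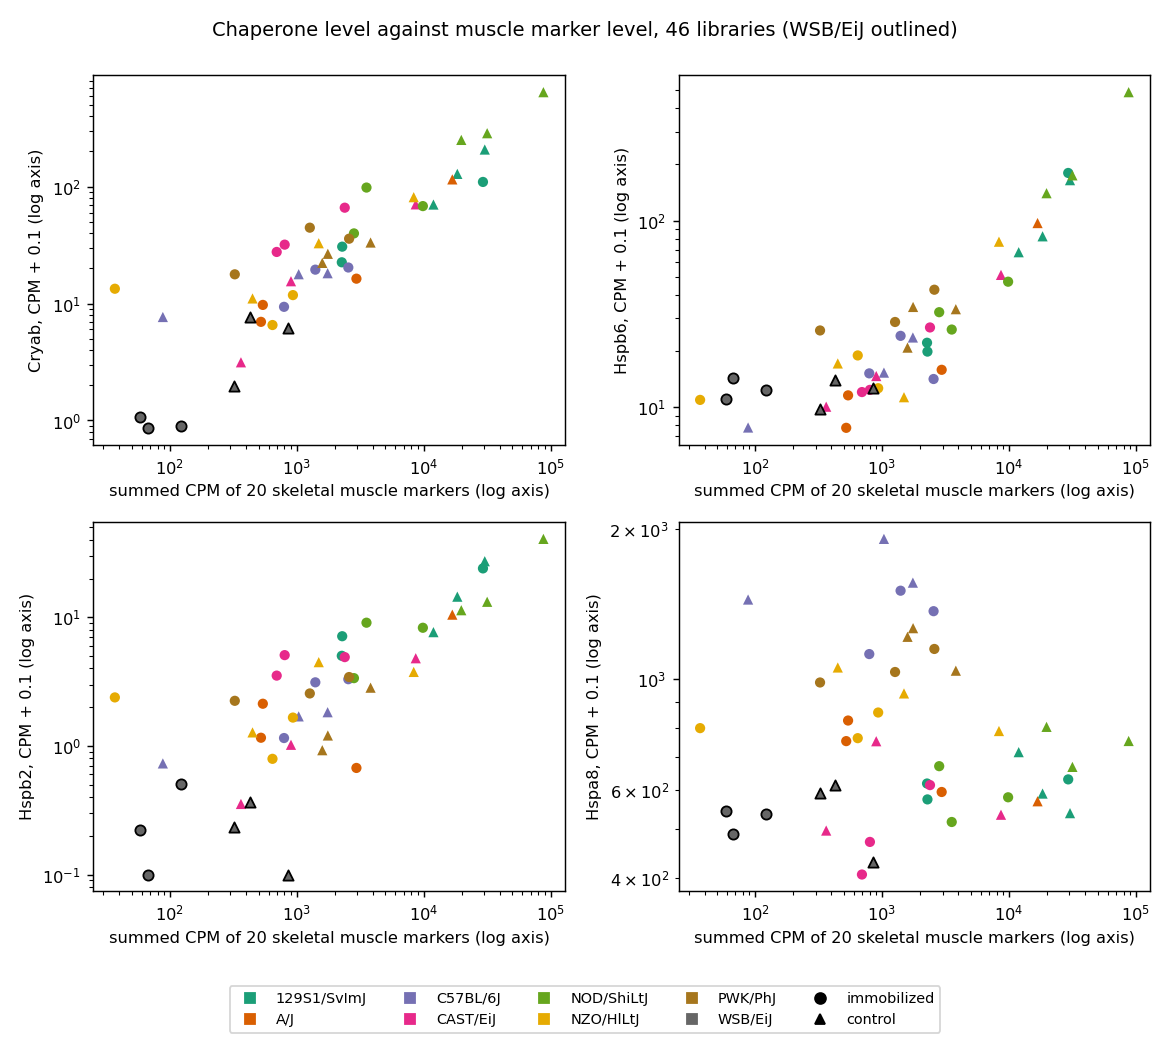
Level of Cryab, Hspb6, Hspb2 and Hspa8 (CPM + 0.1, log axes) against the summed CPM of 20 skeletal muscle markers (log axis) in 46 libraries; colours are strains, circles immobilized limbs, triangles control limbs, and WSB/EiJ is outlined. Cryab, Hspb6 and Hspb2 climb with the marker sum and Hspa8 does not; the WSB/EiJ immobilized limbs lie lowest for Cryab, at 0.765 to 0.972 CPM.

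The cast effect was then read strain by strain. Within NOD/ShiLtJ, 5 of the 37 fell and 0 rose, against 2.78% of all genes lower. Hsph1 had 28.3, 27.4 and 21.9 CPM in the immobilized limbs of NOD/ShiLtJ mice 4, 5 and 6, and 64.1, 75.8 and 52.5 CPM in their control limbs. The groups did not overlap, and the log2 change was -1.27 ± 0.20 (SE; FDR 0.00514). Trap1 had 64.5, 70.3 and 52.2 CPM in the same immobilized limbs and 97.3, 86.9 and 85.6 CPM in the control limbs, again without overlap, at -0.51 ± 0.12 (SE; FDR 0.0153). Hspb6 fell by 2.72 ± 0.68 (FDR 0.0242), Dnajb5 by 1.56 ± 0.43 (FDR 0.0352) and Hsf1 by 0.43 ± 0.12 (FDR 0.0383). The muscle marker sum in these mice ranged from 2824 to 9860 CPM in immobilized limbs and from 19800 to 87842 CPM in control limbs, and with the muscle score 1 of the 37 was called, against 7.63% of all genes. It was Hsph1, at -1.12 (FDR 0.00881). Trap1 then had -0.40 (FDR 0.0651), Hsf1 -0.37 (FDR 0.113), Hspb6 -1.51 (FDR 0.0802) and Dnajb5 -0.85 (FDR 0.149). Leaving out 1 NOD/ShiLtJ mouse at a time gave 0 to 5 calls.

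Within CAST/EiJ, 3 fell and 0 rose, against 5.47% of all genes lower. Hsph1 had 31.2, 20.1 and 22.9 CPM in the immobilized limbs of mice 2, 3 and 4, and 69.3, 54.8 and 41.2 CPM in their control limbs, with no overlap. Its log2 change was -1.13 ± 0.20 (SE; FDR 0.00169). Trap1 followed at -0.43 ± 0.12 (FDR 0.0191) and Hspa4 at -0.38 ± 0.11 (FDR 0.0312). Muscle marker sums overlapped between these limbs, with 695 to 2389 CPM in immobilized limbs and 363 to 8664 CPM in control limbs. With the muscle score 7 members were called (4 higher, 3 lower), against 19.2% of all genes. The higher ones were Hspb2 at 2.08 (FDR 0.0106), Hspb8 at 1.54 (FDR 0.0367), Cryab at 1.48 (FDR 0.0289) and Bag3 at 0.68 (FDR 0.0483). The lower ones were Hsph1, Trap1 and Hspa4. Hsph1 was called without any 1 of the CAST/EiJ mice, while Hspa4 was lost each time and Trap1 in 2 of 3 fits.

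In A/J, where 1 mouse had both limbs, 2 rose and 0 fell, against 2.71% of all genes higher. Hspa4 had 173 CPM in the immobilized limb and 104 CPM in the control limb of that mouse, a log2 change of 0.77 ± 0.20 (SE from the other strains; FDR 0.0389). Dnajb6, a J-domain protein that suppresses aggregation, had 0.85 ± 0.23 (FDR 0.0491). Both calls were gone without the filter on low counts. They were also gone without a term per mouse, in a fit that took in the unpaired A/J immobilized replicates 2 and 5. The muscle marker sum of this mouse was 540 CPM in the immobilized limb and 16823 CPM in the control limb. Once the muscle score was added, 0 members were called, against 0.0592% of all genes, with Hspa4 at 0.80 (FDR 0.121) and Dnajb6 at 0.82 (FDR 0.17).

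In 129S1/SvImJ, C57BL/6J, NZO/HlLtJ, PWK/PhJ and WSB/EiJ, 0 members were called by edgeR. At an unadjusted p under 0.05 the numbers were 1, 2, 0, 4 and 4 in that order, against 4.54%, 4.88%, 2.17%, 12.2% and 6.43% of all genes, and DESeq2 called 0, 0, 0, 1 and 1, against 0.0296%, 0.0296%, 0.107%, 0.9% and 0.124%. By edgeR, calls over all genes were few in these strains as well, at 0%, 0.00592%, 0.00592%, 0.0889% and 0.00592%. Hsph1 was nonetheless lower in the immobilized limb of every C57BL/6J, 129S1/SvImJ, PWK/PhJ and WSB/EiJ mouse, with log2 changes of -0.70 ± 0.20, -0.59 ± 0.20, -0.88 ± 0.20 and -1.04 ± 0.20. The 3 NZO/HlLtJ mice had 50.3, 52.4 and 36.0 CPM in immobilized limbs and 43.7, 58.8 and 46.3 CPM in control limbs, which overlapped, at -0.13 ± 0.19 (SE). NZO/HlLtJ immobilized libraries were also the deepest of the series, and their part in this was not tested. The A/J mouse had 32.4 CPM in the immobilized limb and 27.9 CPM in the control limb.

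Whether the cast effect differed among the 8 strains was tested with an F test on 7 degrees of freedom, and 0 of the 37 passed, against 2.5% of all genes. At an unadjusted p under 0.05 there were 8, against 20.6%, and DESeq2 called 8, against 12.8%. The smallest FDR was that of Hsph1, at 0.0864, followed by Hspa4 at 0.11 and Hspb1 at 0.14. With each strain set against the mean of the other 7, edgeR called 6 members in A/J, against 9.38% of all genes, and these rest on 1 mouse. A call in NOD/ShiLtJ or CAST/EiJ and none in another strain is therefore not shown to be a difference between them.

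Differences among strains were then tested within each limb. Among the 24 immobilized limbs, 12 of the 37 (32.4%) differed among strains, against 50.3% of all genes. Among the 22 control limbs it was 17 of 37 (45.9%), against 40.6%, a share near the background. With the muscle score as a covariate, 7 members were called in immobilized limbs, against 40.7% of all genes, and 5 in control limbs, against 25.3%. The 5 in control limbs were Hspa8, Hspa1b, Hspb1, Hspe1 and Hspa13.

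**Figure D4:**
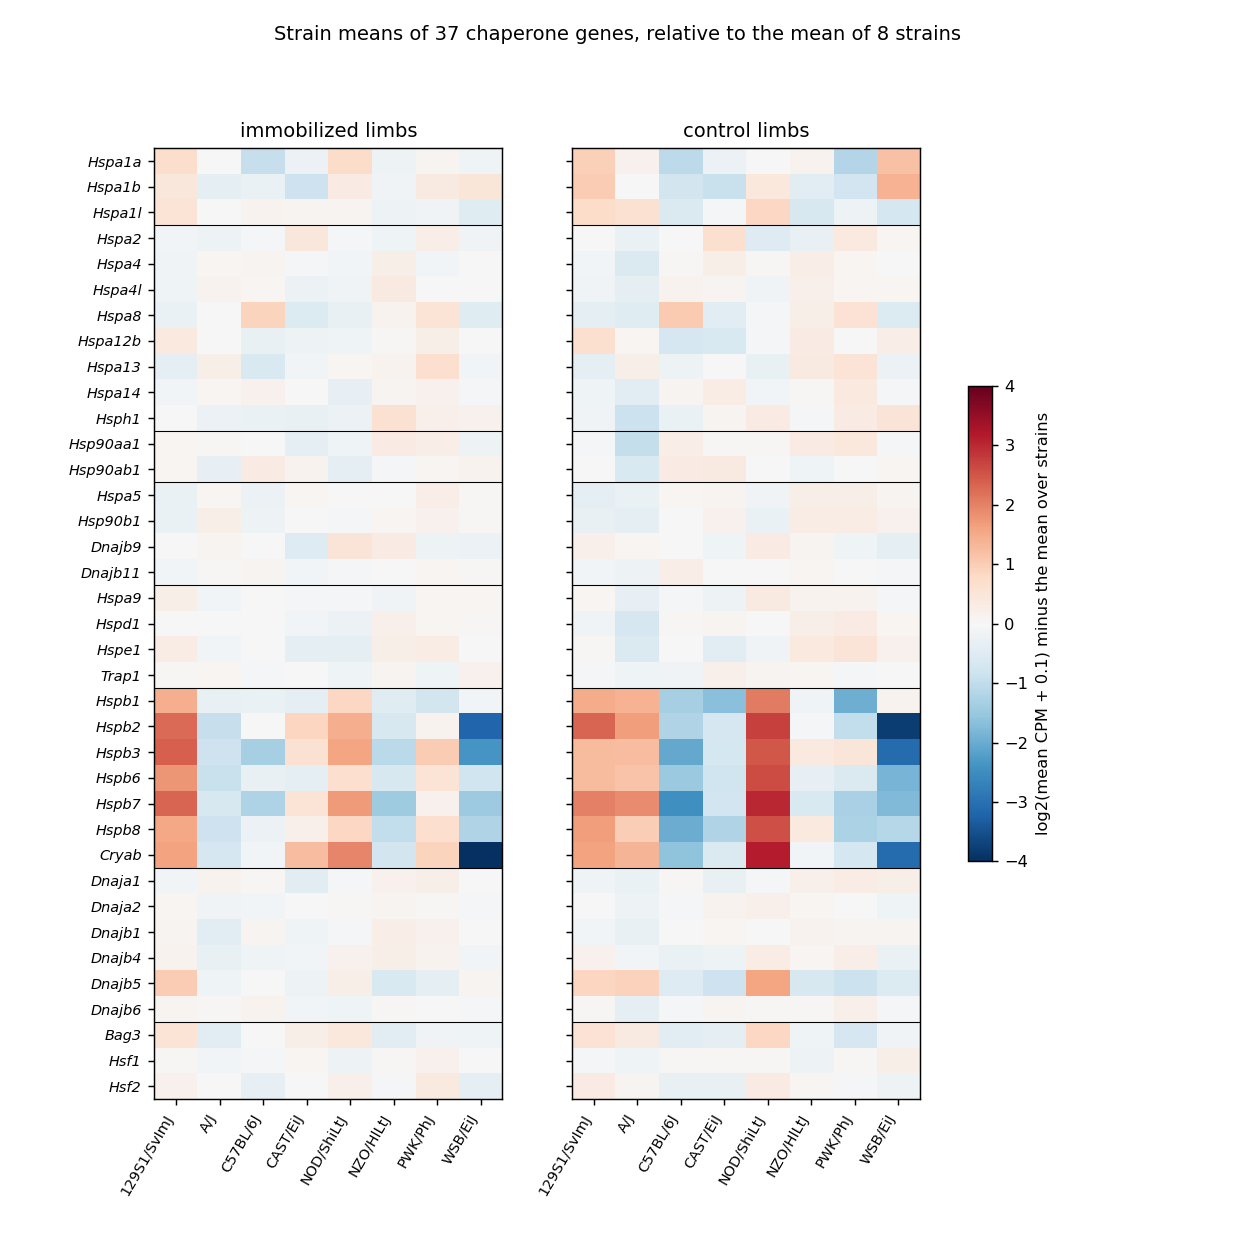
Strain means of the 37 genes, as log2(mean CPM + 0.1) minus the mean over 8 strains, for immobilized limbs (left) and control limbs (right); red is above and blue below the mean of the strains. The small heat shock proteins and Dnajb5 form the block with the strongest colours, the NOD/ShiLtJ control column is red through it, and Cryab and Hspb2 are dark blue in WSB/EiJ.

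Hspa8 had the smallest FDR of the 37 in both limbs, 3.71e-06 in immobilized and 6.64e-05 in control limbs. C57BL/6J mice 1, 4 and 6 had 1124, 1371 and 1507 CPM in immobilized limbs and 1564, 1446 and 1914 CPM in control limbs. PWK/PhJ mice 3, 4 and 6 had 1035, 1151 and 986 CPM in immobilized limbs and 1041, 1267 and 1217 CPM in control limbs. The control means then descended through NZO/HlLtJ (927 CPM), NOD/ShiLtJ (741), 129S1/SvImJ (614), CAST/EiJ (594), A/J (569, 1 library) and WSB/EiJ (545). Among control limbs, no library of another strain reached the C57BL/6J values, whereas from PWK/PhJ downwards each strain overlapped the next in this order. Among immobilized limbs, C57BL/6J and PWK/PhJ overlapped.

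Set against the mean of the other 7 strains, C57BL/6J was higher in Hspa8 by a log2 difference of 1.01 ± 0.12 (SE; FDR 3.95e-06) in immobilized limbs and 1.21 ± 0.14 (FDR 2.46e-05) in control limbs. PWK/PhJ was higher by 0.63 ± 0.12 in immobilized and 0.65 ± 0.15 in control limbs, while WSB/EiJ was lower, at -0.52 ± 0.13 and -0.61 ± 0.17, and CAST/EiJ too, at -0.60 ± 0.13 and -0.47 ± 0.16. All 8 passed an FDR of 0.05. Of the 8, 5 still did with the muscle score, among them both C57BL/6J differences, at 1.01 (FDR 1.13e-05) in immobilized limbs and 1.11 (FDR 0.00261) in control limbs. The WSB/EiJ differences lost the call, at -0.43 (FDR 0.35) in immobilized and -0.73 (FDR 0.086) in control limbs, as did that of CAST/EiJ control limbs, at -0.52 (FDR 0.056). Reads of every strain were counted on mm10, the C57BL/6J genome, and 6 other annotated genes, 5 of them pseudogenes, match Hspa8 transcripts at 95% identity or more over at least 200 bases. The part of read assignment in the Hspa8 difference was not tested.

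**Figure D5:**
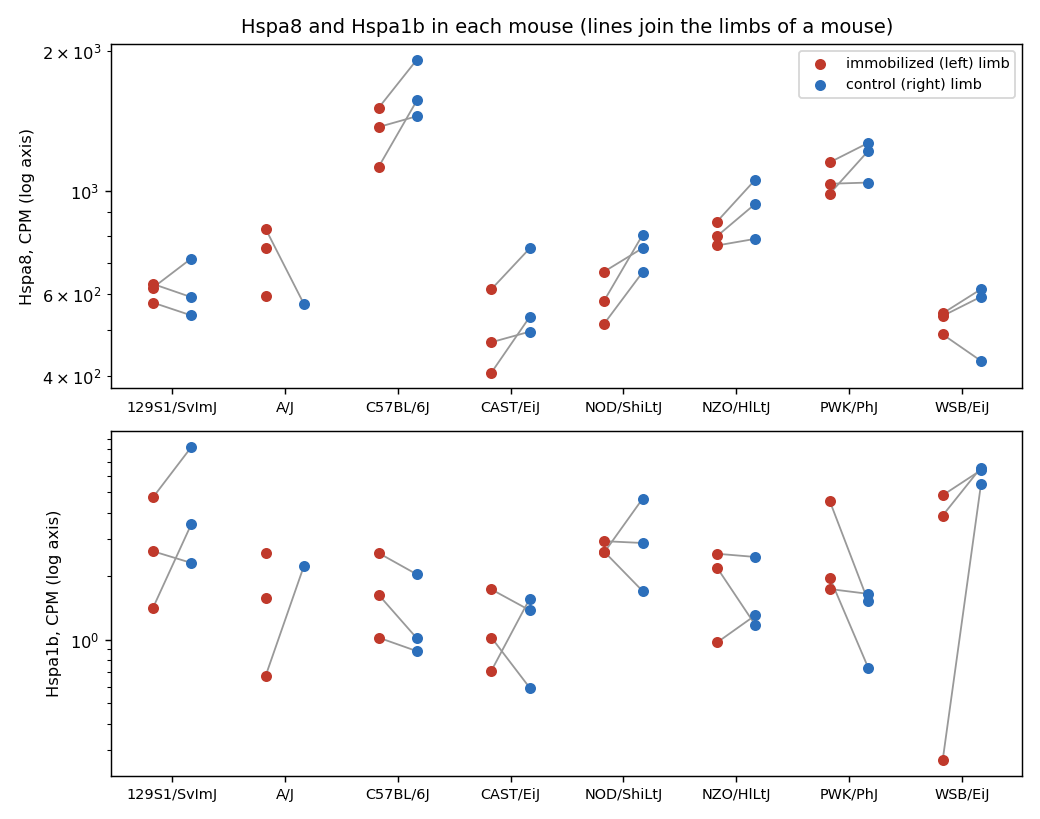
Hspa8 (top) and Hspa1b (bottom) in CPM on log axes in every usable library, by strain, immobilized limb left and control limb right; lines join the limbs of a mouse. For Hspa8 the C57BL/6J control limbs, at 1446 to 1914 CPM, lie above the control limbs of the other strains, with PWK/PhJ next at 1041 to 1267 CPM, and the WSB/EiJ control limbs lie at 5.49 to 6.57 CPM for Hspa1b.

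Hspa1b also marked a strain. WSB/EiJ control limbs had 6.57, 5.49 and 6.38 CPM (49, 41 and 44 counts), above all control limbs of the other strains except 129S1/SvImJ replicate 3 at 8.20 CPM. The log2 difference from the other 7 was 1.65 ± 0.36 (SE; FDR 0.00828), and 2.46 (FDR 0.00729) with the muscle score. Its neighbour Hspa1a, with nearly the same sequence, had 3.48, 2.55 and 4.79 CPM in the same 3 limbs. In the immobilized limbs of the same mice Hspa1b had 3.89, 0.269 and 4.85 CPM, and the strain was not called there.

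NOD/ShiLtJ control limbs had the highest strain means in the muscle-linked members. In this strain, 10 of the 37 were higher than in the mean of the other 7 and 0 were lower, against 9.15% of all genes higher. They were all 7 small heat shock proteins, Dnajb5, Bag3 and Hspa1l. Cryab had 642, 251 and 286 CPM there, against 1.88 to 207 CPM in the other control limbs, which did not overlap, and its log2 difference was 3.58 ± 0.54 (SE; FDR 0.000293). Hspb7 reached 3.43 ± 0.60, Hspb2 3.23 ± 0.52 and Hspb6 2.98 ± 0.46. Apart from Cryab, each of the 10 overlapped with 129S1/SvImJ control limbs. For example, 129S1/SvImJ control replicate 3 had 233 CPM of Hspb7, 27.2 CPM of Hspb2 and 165 CPM of Hspb6. NOD/ShiLtJ control replicate 5 had 143, 11.3 and 140 CPM of these genes. The NOD/ShiLtJ control limbs held 19800 to 87842 CPM of the 20 muscle markers and those of 129S1/SvImJ 11945 to 30311 CPM, more than most others. With the muscle score 0 of the 37 were called in NOD/ShiLtJ control limbs, against 1.0% of all genes. In immobilized limbs it was 129S1/SvImJ that had most calls of this kind, 7 higher against 6.76% of all genes, where replicate 2 alone had a marker sum of 29335 CPM. With the muscle score 0 of the 37 were called in 129S1/SvImJ immobilized limbs, against 1.95% of all genes.

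WSB/EiJ differed in a second way, in the neighbouring genes Cryab and Hspb2. These lie head to head on chromosome 9 on opposite strands, with starts 1029 bases apart, and share 252 exon bases, which are 30.2% of those of Hspb2, so unstranded counting could mix them. Cryab had 0.972, 0.806 and 0.765 CPM (8, 6 and 6 counts) in the WSB/EiJ immobilized limbs and 7.64, 1.88 and 6.09 CPM in the control limbs. Hspb2 had 1, 3 and 0 counts in the immobilized limbs and 2, 1 and 0 counts in the control limbs. No immobilized limb of another strain had less than 6.45 CPM of Cryab. The log2 difference of Cryab from the other 7 strains was -4.92 ± 0.66 (SE; FDR 2.88e-05) in immobilized limbs and -3.54 ± 0.85 (FDR 0.0175) in control limbs.

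WSB/EiJ limbs also held little muscle RNA, with marker sums of 58.7 to 122 CPM in immobilized limbs and 323 to 854 CPM in control limbs. With the muscle score as a covariate, the Cryab difference was -3.77 ± 0.66 (SE; FDR 0.00181) in immobilized limbs and -1.28 (FDR 0.145) in control limbs. Hspb6 in the WSB/EiJ immobilized limbs, at 10.9, 12.2 and 14.3 CPM, lay within the range of the other strains. Low values were not confined to the chromosome 9 pair. Hspb3 had 0 counts in each WSB/EiJ immobilized limb and 0, 1 and 0 counts in the control limbs. Among immobilized limbs, WSB/EiJ also had the lowest strain means of Hspb7 (5.21 CPM) and Hspb8 (4.57 CPM), though both overlapped with other strains.

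PWK/PhJ and CAST/EiJ also had calls in control limbs. In PWK/PhJ, 5 members were higher and 1 was lower than in the mean of the other 7 strains, against 10.1% of all genes higher and 6.55% lower. In CAST/EiJ, 3 were higher and 4 lower, against 13.1% and 9.57%. The largest difference in both strains was in Hspb1, which was lower. It had 2.43, 2.21 and 1.24 CPM (16, 18 and 9 counts) in PWK/PhJ control limbs and 1.38, 5.54 and 0.254 CPM (12, 60 and 3 counts) in CAST/EiJ control limbs, and no control limb of the other 6 strains had less than 2.78 CPM. The separation was narrow: C57BL/6J control limbs had 2.99, 2.78 and 3.34 CPM (19, 22 and 23 counts). The CAST/EiJ limb at 5.54 CPM lay within the range of the other strains. The log2 difference was -2.26 ± 0.69 (SE; FDR 0.0325) in PWK/PhJ and -1.93 ± 0.65 (FDR 0.0426) in CAST/EiJ, and with the muscle score both were still called, at -1.78 (FDR 0.0263) and -1.74 (FDR 0.0254). Here too, reads were counted on mm10. At the limits given for Hspa8, 2 other annotated genes, 1 of them a pseudogene, match Hspb1 transcripts. The part of read assignment in the Hspb1 differences was not tested.

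The other differences of these strains in control limbs were under 1 on the log2 scale. PWK/PhJ was higher in Hspa13, a microsomal HSP70 relative, by 0.61 ± 0.14, in Hspe1, the mitochondrial co-chaperonin, by 0.58 ± 0.13, in Hspa14 by 0.46 ± 0.14 and in Dnaja1 by 0.34 ± 0.10, beside Hspa8. CAST/EiJ was higher in Hspa2, another testis-enriched HSP70 gene, by 0.75 ± 0.22, in Hsp90ab1 by 0.42 ± 0.14 and in Trap1 by 0.25 ± 0.084. It was lower in Hspe1, at -0.47 ± 0.14, and in Dnaja1, at -0.33 ± 0.11, beside Hspa8. Each of these differences passed an FDR of 0.05, but with the muscle score 4 of them did not: Hspa14 (FDR 0.0618) and Dnaja1 (FDR 0.055) in PWK/PhJ, and Hsp90ab1 (FDR 0.108) and Trap1 (FDR 0.0919) in CAST/EiJ. Hspb3 was called in PWK/PhJ with the score alone, at 1.79 (FDR 0.0233). At the limits given for Hspa8, 4 other annotated genes, 3 of them pseudogenes, match Dnaja1 transcripts. Transcripts of Hspe1 and Hspa14 each match 1 other gene. The part of read assignment in the strain differences of these 3 genes was not tested.

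In immobilized limbs, Hspa13 was again higher in PWK/PhJ, by 0.79 ± 0.17 (SE; FDR 0.00272). CAST/EiJ had 2 members higher and 3 lower there, against 11.1% and 7.49% of all genes. The higher ones were Cryab, by 1.47 ± 0.36 (FDR 0.00629), and Hspa2, by 0.56 ± 0.19 (FDR 0.0415), whose call was lost with the muscle score (FDR 0.0519). The lower ones were Hspa8, Dnajb9, at -0.56 ± 0.16, and Dnaja1, at -0.45 ± 0.13. Hsph1 was higher in NZO/HlLtJ, by 0.67 ± 0.15 (SE; FDR 0.00677), the strain whose limbs had not separated in Hsph1.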

How the data were processed

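Raw counts of reads per gene (whole numbers, no scaling) were deposited by the authors. The submitters' processing notes list featureCounts, DESeq2 and mm10 without versions. The sources used here do not name the aligner, the annotation, the strand option or any filter. Libraries were stranded mRNA libraries, per the labels' protocols. The members and gene lists were chosen with earlier results of these data known.

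All tests are edgeR's quasi-likelihood F test (edgeR 4.0.16, R 4.3.3; robust fit, TMM, low counts removed with filterByExpr, Benjamini-Hochberg adjustment over every gene tested, threshold 0.05), unless DESeq2 1.42.0 is named. The paired model fitted each mouse as a block plus 1 limb effect for each strain, and the mean effect weights the 8 strains equally. CPM were computed by edgeR from TMM library sizes. The muscle score is the mean log2 CPM (prior count 2) of 20 markers, added as a covariate. The method was tested on simulated data. Coordinates and overlaps come from GENCODE M21 (GRCm38).

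The series design states that both limbs came from the same animal, which is the source of the pairing. Over 21 mice, the correlation across genes of the limbs' deviations from their group means had a median of 0.089 (-0.26 to 0.548) and exceeded 0.1 in 10. The labels name no batch, litter or extraction day.

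Named in full were members called in the mean cast effect, the member of highest CPM in each class, and the 5 with the smallest p among control limbs; within strains, called members; and from other lists at most 4 called genes. Alternatives were RLE scaling, no low-count filter, DESeq2, no term per mouse, all 48 libraries, each strain's own libraries, the muscle score and leaving out each mouse; 3 were added after seeing the data (the muscle score within strains, and leaving out the NZO/HlLtJ mice, for the mean and for the test among strains).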

Additional observations from a re-analysis of the deposited data

Results flagged for a closer look

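The test of each strain's cast effect against the mean of the other 7 picked out 6 members in A/J, against 9.38% of all genes, and 0 in each other strain by edgeR (at an unadjusted p under 0.05, 9 in CAST/EiJ and 9 in NOD/ShiLtJ, against 25.9% and 18.1% of all genes, and 0 to 2 elsewhere). Each A/J effect rests on 1 mouse, so its spread is borrowed from the other strains. Hspa4 had a difference in log2 change of 0.94 ± 0.20 (SE; FDR 0.0143), from 0.77 in A/J and -0.17 in the mean of the others. For Hsp90aa1 the difference was 1.22 ± 0.33 (FDR 0.029), from 1.02 and -0.20. Hspd1 differed by 1.01 ± 0.25 (FDR 0.0203), from 0.76 and -0.25, and Hspa14, a ribosome-linked HSP70 relative, by 0.91 ± 0.28 (FDR 0.0472), from 0.77 and -0.14. Dnajb6 differed by 0.87 ± 0.24 (FDR 0.0327), from 0.85 and -0.02. Hspb1 went the other way, by -4.03 ± 1.21 (FDR 0.0448), from -4.29 and -0.26. It had 1.01 CPM (6 counts) in the immobilized limb and 20.6 CPM in the control limb of that mouse, whose muscle marker sums were 540 CPM in the immobilized limb and 16823 CPM in the control limb. With the muscle score the A/J change of Hspb1 was -2.58 (FDR 0.24). The F test across all 8 strains called none of these 6.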

How the results depend on the processing

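With the skeletal muscle score as a covariate, the mean cast effect called 1 member lower instead of 6, strain differences called 7 members in immobilized limbs instead of 12 and 5 in control limbs instead of 17, and the cast effect called 0 in A/J, 7 in CAST/EiJ and 1 in NOD/ShiLtJ. The score also turned the mean changes of Hspb2 (0.94), Hspb3 (0.16), Hspb7 (0.19), Hspb8 (0.88), Dnajb5 (0.0103), Bag3 (0.21) and Hsf2 (0.20) positive. DESeq2 called more, of the members and of all genes: 10 lower in the mean (10.8% of all genes called), 8 in the test among strains (12.8%), 9 within A/J (10.5%), 6 within CAST/EiJ (17.7%), 11 within NOD/ShiLtJ (11.3%), 1 within PWK/PhJ (0.9%), 1 within WSB/EiJ (0.124%), 21 among immobilized (62.0%) and 28 among control limbs (55.0%). With all 48 libraries, A/J had 6 calls, CAST/EiJ 1 and NOD/ShiLtJ 3, and the changes of Hspa8 (0.0035), Hsp90aa1 (0.0063) and Hsp90ab1 (0.014) turned positive. Without the low-count filter, A/J had 0 calls, NOD/ShiLtJ 3, Dnaja1 turned to -0.0015, and Cryab and Hspb6 lost their calls. NOD/ShiLtJ had 1 call in its own 6 libraries, and A/J 4 without the NZO/HlLtJ mice. The cause of these differences was not tested. RLE scaling moved the median of all genes by -0.0103 and kept 6 lower.

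The fit without the term per mouse (no replicate block) used all 46 usable libraries, with the unpaired A/J immobilized limbs. In it the mean effect called 7 lower and 0 higher, A/J 0, CAST/EiJ 2 and NOD/ShiLtJ 6. The test among strains called 0, and Dnaja1 turned to -0.0009.

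Leaving out 1 mouse at a time gave 2 to 8 members lower and 0 to 0 higher in the mean, 0 to 0 in the test among strains, 1 to 2 within CAST/EiJ, 0 to 5 within NOD/ShiLtJ (0 without replicate 4 or 6), 8 to 16 in immobilized and 16 to 22 in control limbs. The mean fell to 2 without NZO/HlLtJ replicate 6 and to 3 without C57BL/6J replicate 6, PWK/PhJ replicate 3 or 4, or WSB/EiJ replicate 4. Small mean changes crossed 0: Bag3 (-0.098 to 0.11), Dnaja1 (-0.061 to 0.034), Dnajb6 (-0.016 to 0.11), Hsp90b1 (-0.066 to 0.037), Hspa5 (-0.030 to 0.047) and Hspb2 (-0.36 to 0.10). Depth limits Hspa1a, Hspa1b, Hspb2 and Hspb3 most.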
